A study of Homo sapiens with 6 samples.

Results

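Integrins and laminins are the receptors and ligands by which epithelial cells hold on to the basement membrane. They were followed here across 36 member genes, 25 integrin subunits and 11 laminin chains, in 2 cholangiocarcinoma cell lines treated with regorafenib. The members were taken by name as the human integrin and laminin genes, by a rule that itself uses no measured value. A member was measured where the array carried a probe set annotated to its symbol and to no other. By this rule 34 of the 36 were measured, on 94 of 54613 probe sets. ITGB6 was left out because its probe sets carry several symbols, and LAMA3 was not analysed here.

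Each integrin is a pair of an alpha and a beta subunit. The beta subunit ITGB1 pairs with most alphas to bind collagens, laminins or fibronectin, ITGAV pairs with several betas to bind ligands that carry the RGD peptide, and the pair of ITGA6 and ITGB4 anchors hemidesmosomes. Each laminin is a trimer of an alpha, a beta and a gamma chain that is secreted and built into the basement membrane, where bile duct cells and the carcinomas that arise from them meet it.

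HuCCT1 is labelled as a bile duct carcinoma line and KKU-100 as a poorly differentiated cholangiocarcinoma line. Each line gave 3 arrays, from cells given solvent, 1 µM or 10 µM regorafenib, an inhibitor of several kinases. These doses are those of the labels, whereas the paper states lower ones for the arrays, so the treatments are called the low and the high dose. The labels add for all 6 samples, solvent included, that the cells were stably transduced and selected with puromycin, without naming a construct. No condition was repeated, so that a fold change against solvent has no replicate check, and each line is 1 stock of cells.

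The array medians lay between 28.8 and 29.3 signal units, so the arrays were on 1 scale. The epithelial label was checked with 6 biliary markers. All 6 reached the level filter, the median of all probe sets, in HuCCT1, with a summed signal of 39988 to 46112. In KKU-100 only 4 did, with a sum of 17428 to 22789, and the defining markers KRT19 and EPCAM were near the lower end of the array's range, both at or below 11.1. CDH1 was also lower in KKU-100, at 22.9 to 79.9 against 2628 to 3238 in HuCCT1, and KRT7 read 917 to 1227 against 10354 to 11038. KRT8 was higher there, at 6345 to 8852 against 4534 to 5744, and KRT18 overlapped, at 9747 to 12615 against 8034 to 10753. KRT19, EPCAM and CDH1 thus go against the epithelial label of that line, whereas KRT8 and KRT18 do not. The identity of KKU-100 was not checked in any other way, and each difference between the lines below is one between the cultures so labelled. Of the 5 fibroblast markers 3 reached the filter in each line, with sums of 233 to 271 in HuCCT1 and 786 to 1062 in KKU-100, where COL3A1 alone read 538 to 779 against at most 8.63 in HuCCT1. The leukocyte markers summed to 96.1 to 105 and 79.1 to 89.7 with PTPRC at or below 10.5, and the endothelial markers to 99.7 to 127 and 99.5 to 112. Of the 3 platelet markers, all reached the filter in HuCCT1 and 2 in KKU-100, with sums of 1604 to 2661 and 108 to 116. How these markers bear on the differences between the lines given below was not tested. A signal is also an average over all cells of a dish, so fewer cells carrying a transcript and less transcript per cell cannot be told apart.

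The promoters of 4 members on which the results turn are shown, each as the 250 bases before the annotated start in RefSeq, build GRCh38.p14, read 5′ to 3′ on the gene's own strand. ITGA2 and ITGA6 were lower at both doses in both lines, ITGB8 lay above solvent in HuCCT1 and below it in KKU-100, and LAMB3 was the member furthest apart between them by representative probe sets. Capitals mark a match to the AP-1 motif.
ITGA2, chr5:52989102-52989351, plus strand: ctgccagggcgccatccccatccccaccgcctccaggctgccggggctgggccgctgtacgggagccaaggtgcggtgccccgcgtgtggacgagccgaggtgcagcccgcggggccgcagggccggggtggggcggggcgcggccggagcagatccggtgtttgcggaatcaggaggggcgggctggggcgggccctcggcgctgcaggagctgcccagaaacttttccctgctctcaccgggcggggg
ITGA6, chr2:172427086-172427335, plus strand: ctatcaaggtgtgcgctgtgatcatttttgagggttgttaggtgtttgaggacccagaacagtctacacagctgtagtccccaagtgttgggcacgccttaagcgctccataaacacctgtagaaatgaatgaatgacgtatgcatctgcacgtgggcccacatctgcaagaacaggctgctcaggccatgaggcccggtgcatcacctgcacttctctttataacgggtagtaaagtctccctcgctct
ITGB8, chr7:20330650-20330899, plus strand: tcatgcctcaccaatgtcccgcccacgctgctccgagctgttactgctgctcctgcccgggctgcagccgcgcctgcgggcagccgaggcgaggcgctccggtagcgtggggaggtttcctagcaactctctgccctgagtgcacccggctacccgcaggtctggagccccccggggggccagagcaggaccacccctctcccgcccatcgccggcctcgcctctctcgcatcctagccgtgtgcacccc
LAMB3, chr1:209651375-209651624, minus strand: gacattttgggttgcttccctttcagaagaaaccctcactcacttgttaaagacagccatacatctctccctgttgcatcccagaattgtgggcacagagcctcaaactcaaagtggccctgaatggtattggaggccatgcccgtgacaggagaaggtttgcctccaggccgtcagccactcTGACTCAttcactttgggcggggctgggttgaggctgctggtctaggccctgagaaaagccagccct
The ITGA2 and ITGB8 stretches held 76.4% and 71.2% G and C, and the ITGA6 and LAMB3 stretches 50.8% and 54%. ITGA6 has a further window in RefSeq, with 71.6%, and LAMB3 has others with 60% and 64%, neither of which held the AP-1 motif. The AP-1 motif TGANTCA, whose match in LAMB3 starts 67 bases before the annotated start, was searched on both strands of windows that run 250 bases before to 50 after the start. It was found in 7.71% of all 35116 windows and in 3 of the 33 windows listed for 26 of the 36 members, those of ITGA5, LAMB3 and LAMA3. The TEAD motif GGAATG was found in 14% of all windows and in 4 of the 33, those of ITGA10, ITGA5, ITGB1 and LAMA2. A match describes the letters and is not a measured binding site.

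Nearly the same members reached the level filter in both lines. The representative probe set of a gene is the one with the highest mean log2 signal, and a gene was kept in a line where this mean reached the median of all probe sets, a signal of 29.1 in HuCCT1 and 28.9 in KKU-100. Of the 34 measured members 23 were kept in each line and 22 in both, LAMA2 being kept in HuCCT1 alone and ITGA10 in KKU-100 alone. The filter is a rank and no detection call. In both lines it also passed the leukocyte marker CD3E, at 37.3 to 44.3, and the hepatocyte marker TTR, at 76.7 to 88.6, but not PTPRC or ALB. A member kept at such a signal is thus not shown to be expressed. The other 10, among them the leukocyte alphas ITGA4, ITGAL, ITGAM and ITGAX, the platelet alpha ITGA2B, the embryonic chain LAMA1 and LAMB4, stayed between 6.14 and 27.9 on all arrays by their representative probe sets. A further probe set of ITGAM, with 115 on the KKU-100 solvent array, reached the filter in that line. Signals of different probe sets depend on the probes as well as on the transcript, so each gene is compared with itself only.

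**Figure D1:**
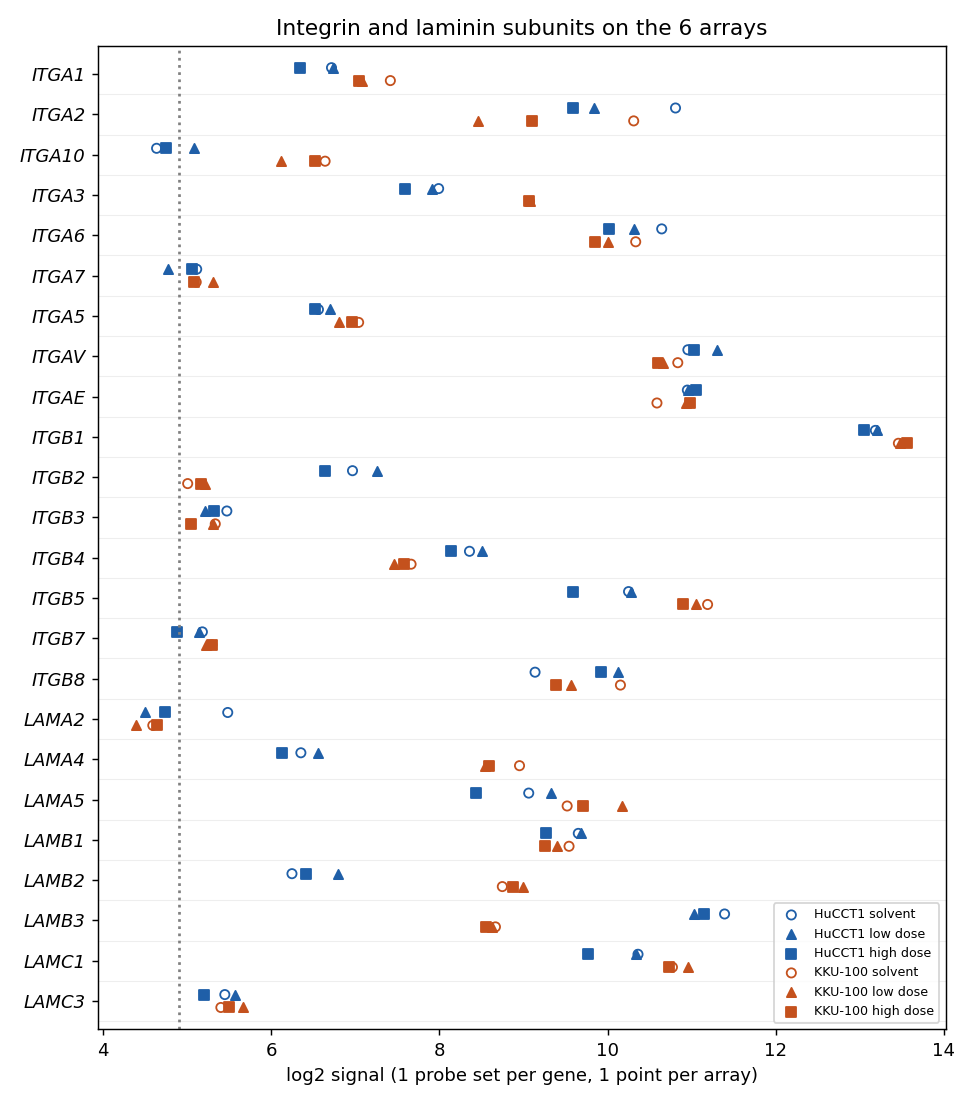
Signal of the representative probe set of each integrin and laminin gene that reached the level filter in HuCCT1 or KKU-100, on the 6 arrays (horizontal axis, signal on a log axis), with 1 point per array, the colour giving the cell line and the marker shape the treatment. LAMB3, LAMB2, LAMA4 and ITGB2 show the 2 lines apart. The 10 genes at or below 27.9 on all arrays are not drawn.

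The widest differences among the members kept lay between the lines. The limma fit over all 6 arrays, with treatment as a block, called 13 of the 22 members kept in both lines, 8 higher in KKU-100 and 5 lower. ITGA10 makes this 14 of 23, but it reached the filter only through KKU-100, where it is high, so that its values are given without a test. This is to be read against a background in which 51.1% of all 27307 probe sets tested were called, 26.1% higher and 25% lower. The arrays of the lines did not overlap for 15 of the 23 members, ITGA10 included, and for 57.3% of all probe sets. A p-value here measures the spread between arrays of 1 stock of cells per line, and the differences are log2 values of KKU-100 minus HuCCT1, with p-values adjusted by Benjamini-Hochberg over all probe sets.

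Among the laminin chains, LAMB3, the beta chain of the epithelial laminin under hemidesmosomes, gave signals of 2688, 2084 and 2277 in HuCCT1 under solvent, low and high dose, and 406, 396 and 376 in KKU-100. All 3 HuCCT1 arrays were above all 3 KKU-100 arrays, a limma difference of −2.57 (SE 0.11, adjusted p = 6.80e-05). The opposite order held for LAMA4, the alpha chain of vessel and mesenchymal basement membranes, with 81.7, 93.7 and 69.7 in HuCCT1 beside 496, 372 and 386 in KKU-100, and a difference of 2.35 (SE 0.17, adjusted p = 2.93e-04). The other LAMA4 probe sets tested went the same way by less in limma, at 1.22 (SE 0.16, adjusted p = 0.002) and 0.67 (SE 0.14, adjusted p = 0.011). LAMB2, a beta chain of mature basement membranes such as that of the kidney glomerulus, read 75.9, 111 and 84.9 in HuCCT1 against 430.0, 512 and 470.3 in KKU-100, a difference of 2.39 (SE 0.14, adjusted p = 1.49e-04). Between the solvent arrays alone the folds by representative probe sets were 6.62 for LAMB3, 6.07 for LAMA4 and 5.67 for LAMB2.

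Smaller differences were found for LAMC1, LAMA5 and LAMB1. LAMC1, the gamma chain of most laminins, gave 1317, 1299 and 874 in HuCCT1 beside 1749, 1989.9 and 1706 in KKU-100, a difference of 0.66 (SE 0.13, adjusted p = 0.008). LAMA5, the alpha chain of adult epithelial basement membranes, gave 535, 643 and 347 in HuCCT1 beside 734, 1149.6 and 839 in KKU-100, a difference of 0.86 (SE 0.18, adjusted p = 0.011). Both were higher in KKU-100 without overlap. For LAMB1, the beta chain most often paired with LAMC1, the signals of 805, 821 and 615 in HuCCT1 beside 745, 673 and 610.2 in KKU-100 overlapped, and the difference of −0.14 (SE 0.11, 95% confidence interval −0.42 to 0.15, adjusted p = 0.360) was not called. LAMB4, next to LAMB1 on chromosome 7 with no protein-coding gene between, read 8.95, 9.06 and 9.67 in HuCCT1 beside 10.7, 8.80 and 9.76 in KKU-100, below the filter throughout.

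**Figure D2:**
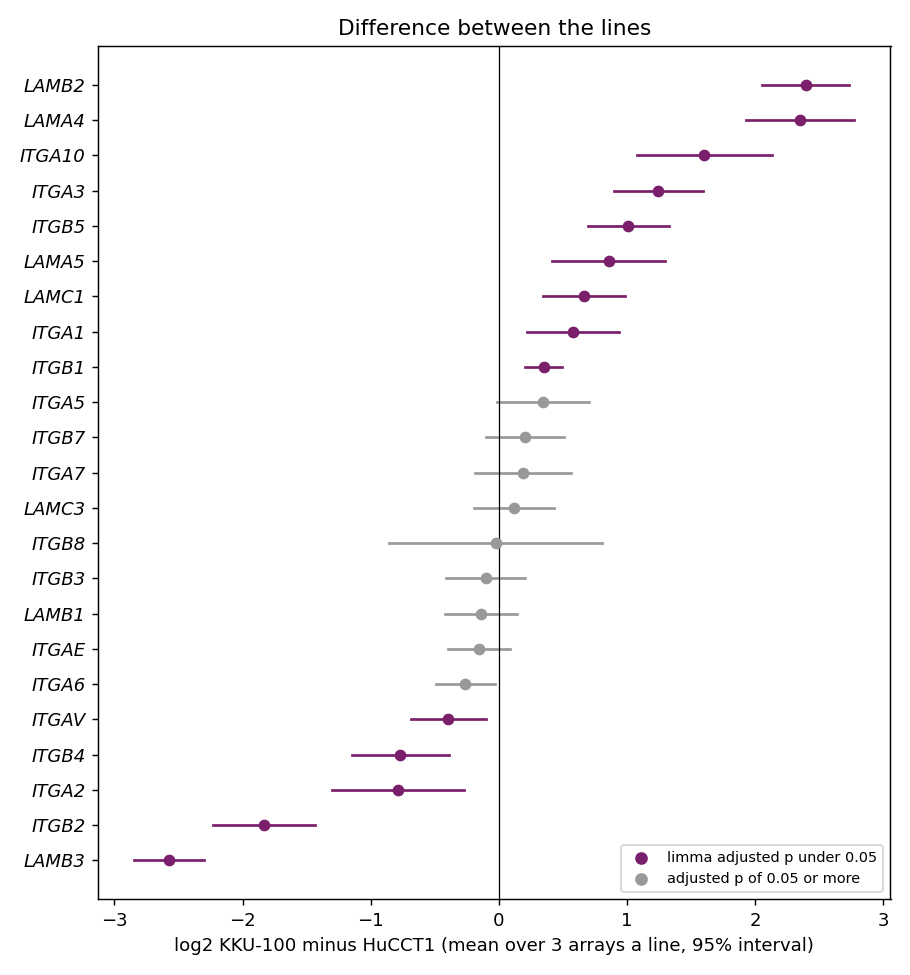
Log2 difference between KKU-100 and HuCCT1 for each of the 23 members in the limma fit, ITGA10 among them although kept through KKU-100 alone (horizontal axis), with bars for the 95% confidence interval and colour for members called at an adjusted p of 0.05. LAMB2 and LAMA4 lie furthest to the right and LAMB3 furthest to the left, with 9 members called higher, ITGA10 included, and 5 lower.

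The collagen-binding alphas differed in both directions. ITGA10, a collagen receptor best known from cartilage, read 24.8, 33.8 and 26.8 in HuCCT1 beside 99.7, 69.1 and 91.8 in KKU-100, without overlap. ITGA1, a receptor for basement membrane collagen, was also higher in KKU-100, with 171, 135 and 132 against 105, 107 and 81.2 and a difference of 0.58 (SE 0.14, adjusted p = 0.020). ITGA2, the fibrillar collagen receptor of epithelia and platelets and the neighbour of ITGA1 on chromosome 5, was lower in KKU-100, with a difference of −0.79 (SE 0.20, adjusted p = 0.024), although its lines overlapped across doses, as its values below show. ITGA11 was below the filter in both lines.

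Of the laminin-binding alphas, ITGA3, which pairs with ITGB1, gave 254, 240.1 and 193 in HuCCT1 beside 538, 542 and 536 in KKU-100 without overlap, a difference of 1.24 (SE 0.14, adjusted p = 0.001). ITGA6 gave a difference of −0.26 (SE 0.09, adjusted p = 0.060), which was not called. ITGA7, best known from muscle, lay between 27.3 and 39.7 over the 6 arrays and was not called. The hemidesmosomal partner ITGB4 was lower in KKU-100, with 203, 176 and 191 against 328, 363 and 281, no overlap and a difference of −0.77 (SE 0.15, adjusted p = 0.009).

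ITGB1 had signals of 9321, 9463 and 8511 in HuCCT1 beside 11270.1, 11394 and 12104 in KKU-100, a narrow difference without overlap of 0.35 (SE 0.06, adjusted p = 0.005). Among the subunits for RGD ligands, ITGB5, a vitronectin receptor with ITGAV, gave 1218, 1241 and 769.9 in HuCCT1 beside 2337, 2124 and 1915 in KKU-100, higher in KKU-100 on all arrays by 1.01 (SE 0.12, adjusted p = 0.002). ITGAV itself was lower, with 1827, 1622 and 1552 in KKU-100 against 1986, 2528 and 2083 in HuCCT1 and a difference of −0.40 (SE 0.12, adjusted p = 0.036). The fibronectin receptor ITGA5 ranged from 91.6 to 104 in HuCCT1 and from 112 to 132 in KKU-100, and did not pass the test with 0.34 (SE 0.14, adjusted p = 0.098). ITGB3, ITGB7 and LAMC3 stayed between 29.5 and 50.8 on all arrays and were not called.

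ITGB2, the beta subunit of the leukocyte integrins, was measured above the filter in both lines. It gave 125, 153 and 99.98 in HuCCT1 beside 32.1, 36.9 and 35.8 in KKU-100, a difference of −1.83 (SE 0.16, adjusted p = 5.49e-04). A further probe set of ITGB2 went the same way, with 177, 270.1 and 148 in HuCCT1 against 20.1, 16.0 and 13.6, whereas its last one, at 40.3, 38.3 and 38.8 against 34.7, 44.7 and 30.6, did not separate the lines. The leukocyte marker PTPRC and the alphas ITGAL, ITGAM and ITGAX that pair with ITGB2 were below the filter in both lines by their representative probe sets. ITGAE, the alpha of intraepithelial lymphocytes, ranged from 1978 to 2131 in HuCCT1 and from 1539 to 2015 in KKU-100, with a difference of −0.16 (SE 0.10, adjusted p = 0.228). Its gene overlaps those of P2RX5 and HASPIN, and the probe set's place in it was not examined.

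The line difference for some members depended on single arrays. With the HuCCT1 low-dose array left out 9 members were called, and with the KKU-100 low-dose array left out 8, beside 33.6% of all probe sets in each of these fits. ITGA1, ITGA2, ITGAV, ITGB4 and LAMA5 were not called in either fit, and LAMC1 was not called in the latter. Apart from ITGA10, which these counts include, ITGA3, ITGB1, ITGB2, ITGB5, LAMA4, LAMB2 and LAMB3 were called whichever array was left out.

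Against its own solvent array, a gene was counted where it differed by at least 1.5-fold, a log2 value of 0.58. In HuCCT1 at the low dose 3 of 23 members passed this fold, ITGB8 higher and ITGA2 and LAMA2 lower, beside 7.01% of the 12789 genes kept in that line, 3.68% higher and 3.32% lower. At the high dose 7 of 23 passed, ITGB8 higher and ITGA2, ITGA6, ITGB5, LAMA2, LAMA5 and LAMC1 lower, beside 14.7% of all genes, 8.23% higher and 6.44% lower. Both HuCCT1 counts include LAMA2, which reached the filter only through its solvent array. Its lower treated signals thus follow from the filter and are no result. The low dose in KKU-100 had 3 of 23 past it, LAMA5 higher and ITGA2 and ITGB8 lower, beside 17.1% of 12694 genes, 9.75% higher and 7.32% lower. At the high dose ITGA2 and ITGB8 were lower, 2 of 23 beside 14.3%, 9.44% higher and 4.86% lower.

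The median log2 fold change of the members kept was 0.02 and −0.25 in HuCCT1 at the low and high dose, where that of all genes was 0.02 at both. In KKU-100 it was −0.07 and −0.09, beside 0.06 at both doses for all genes. The lowest median belonged to the laminin chains in HuCCT1 at the high dose, with −0.32 over 8 genes, LAMA2 among them, and the integrins there had −0.22 over 15. Within a line the same solvent array served for both doses.

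**Figure D3:**
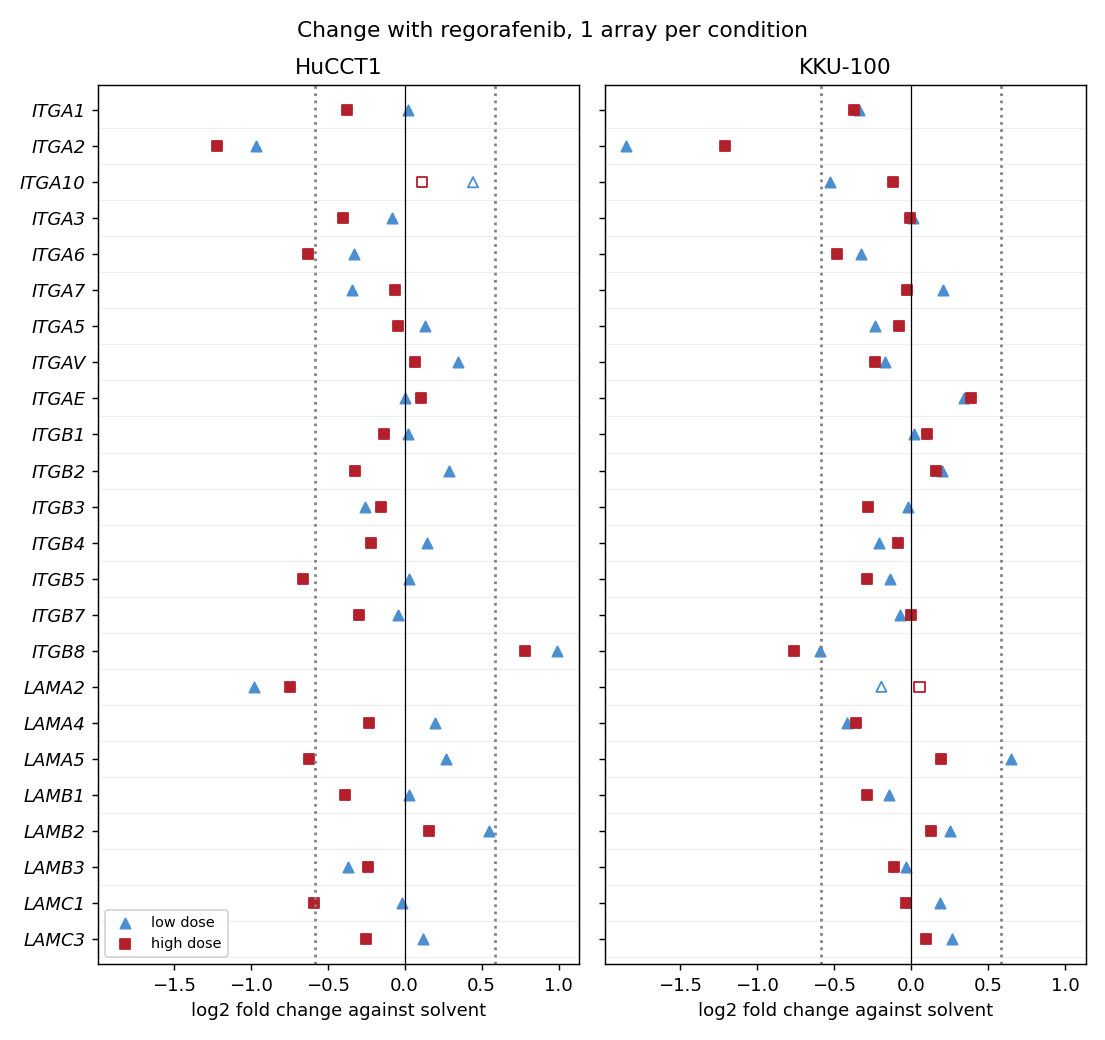
Log2 fold change of each member at the low and high dose against the solvent array of the same line (horizontal axis), for the members that reached the level filter in HuCCT1 or KKU-100. Each line has its own panel, colour and marker shape give the dose, and open markers are members below the filter in that line. ITGA2 is lower in all 4 comparisons, ITGB8 is higher in HuCCT1 and lower in KKU-100, and most other points lie within the 1.5-fold limit.

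ITGA2 was lower in all 4 treated arrays. In HuCCT1 its signal was 1794, 919 and 770.1 under solvent, low and high dose, and in KKU-100 1270.4, 352 and 549.6. Each treated array lay below the solvent array of its line, the log2 fold changes being −0.97 and −1.22 for HuCCT1 and −1.85 and −1.21 for KKU-100, where the low dose had the lower signal. The other ITGA2 probe set read 804, 403 and 335 in HuCCT1 beside 554, 218 and 263 in KKU-100, lower at every dose as well. In limma, over both lines, the low dose gave −1.41 (SE 0.25, 95% confidence interval −2.04 to −0.78, adjusted p = 0.394), and the high dose −1.21 (SE 0.25, adjusted p = 0.175), neither of which passed the threshold. With the HuCCT1 solvent array left out the low-dose difference of ITGA2 was called, in a fit where the solvent level came from KKU-100 alone and 1645 probe sets, 6.02% of all, were called against 0 with all arrays. The neighbouring ITGA1 stayed within 1.5-fold, at 0.02 and −0.37 for HuCCT1 and −0.34 and −0.37 for KKU-100.

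ITGA6, the laminin-binding alpha of hemidesmosomes, was lower on each treated array by less. Its signals were 1601, 1276 and 1037 in HuCCT1 beside 1292, 1030.2 and 925 in KKU-100, lower with each step of dose. The log2 fold changes were −0.33 and −0.63 for HuCCT1 and −0.33 and −0.48 for KKU-100. Its other probe set had the same order, 439, 305 and 248 in HuCCT1 beside 403, 235 and 151 in KKU-100. Its log2 fold changes were larger, −0.53 and −0.83 for HuCCT1 and −0.78 and −1.42 for KKU-100. The limma estimates of −0.33 (SE 0.11, adjusted p = 0.435) at the low dose and −0.55 (SE 0.11, adjusted p = 0.173) at the high dose did not pass the threshold. Its beta partner ITGB4 stayed within 1.5-fold, at 0.15 and −0.22 for HuCCT1 and −0.21 and −0.09 for KKU-100.

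ITGB8, which pairs with ITGAV and releases TGF-beta from its latent complex, went opposite ways in the lines. In HuCCT1 the signal was 563, 1118 and 967, both treated arrays lying above solvent by 0.99 and 0.78 on the log2 scale. In KKU-100 it was 1139, 756 and 672, both treated arrays lying below solvent, at −0.59 and −0.76. The treated arrays of HuCCT1 thus came near the solvent level of KKU-100, and those of KKU-100 near the solvent level of HuCCT1. The difference between the slopes per dose step, KKU-100 minus HuCCT1, was −0.77 (SE 0.26, 95% confidence interval −1.41 to −0.13, adjusted p = 0.887), with an unadjusted p of 0.026, and it did not pass the threshold. Only this 1 of the 5 ITGB8 probe sets reached the filter. The next brightest read 16.7, 21.6 and 18.1 in HuCCT1 beside 34.9, 23.7 and 21.9 in KKU-100, in the same directions. Taken as the median over the 5 probe sets, 4 of which were below the filter in both lines, the log2 fold changes were −0.0011 and −0.026 for HuCCT1 and 0.073 and −0.28 for KKU-100.

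**Figure D4:**
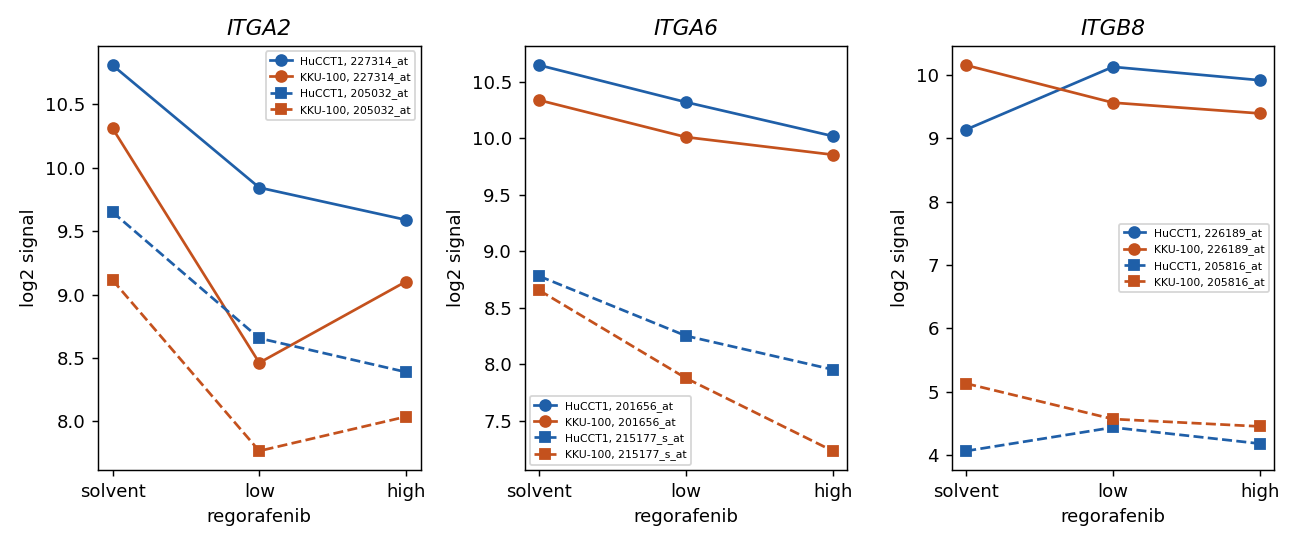
Signal under solvent, low and high dose (log axis) for the probe sets of ITGA2, ITGA6 and ITGB8, with 1 line per probe set and cell line. Both probe sets of ITGA2 and of ITGA6 lie below solvent at each dose in both lines, and the brightest ITGB8 probe set runs up in HuCCT1 and down in KKU-100.

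By their representative probe sets, ITGB5, LAMA5 and LAMC1 were past 1.5-fold in HuCCT1 at the high dose alone among that line's doses. ITGB5 read 1218, 1241 and 769.9 there, the log2 fold changes being 0.03 and −0.66, beside −0.14 and −0.29 for KKU-100. Over both lines its limma estimate at the high dose was −0.47. Its other probe sets differed in size, at −0.54, −0.13 and −0.25, and none of these estimates was called. LAMC1 had −0.02 and −0.59 in HuCCT1, just past the limit, and 0.19 and −0.04 in KKU-100. Its other probe set gave a limma estimate over both lines of −0.33 (SE 0.15) at the high dose, which was not called. The slope difference there was 0.04, beside 0.28 for the probe set used, so the lines moved more alike. LAMA5 lay above solvent at one dose and below it at the other in HuCCT1, with 0.27 and −0.62, and was above solvent at both doses in KKU-100, with 0.65 and 0.19. LAMB1 did not pass 1.5-fold, at 0.03 and −0.39 for HuCCT1 and −0.15 and −0.29 for KKU-100.

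LAMA2, the alpha chain of muscle basement membrane, was a low signal, 44.7, 22.7 and 26.6 in HuCCT1 beside 24.1, 21.1 and 25.0 in KKU-100. Only the HuCCT1 solvent array stood above the rest, and its treated arrays were below the filter value of 29.1. The log2 fold changes in HuCCT1 were −0.98 and −0.75, and −0.30 and −0.21 without probe sets whose names end in _x_at or _s_at, which takes away the one used here. LAMB3 had log2 fold changes from −0.37 to −0.04 over the 4 comparisons.

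The probe sets of ITGB1 differed from each other at the high dose. The brightest had log2 fold changes from −0.13 to 0.10 over the 4 comparisons. The next read 5388, 5330 and 3861 in HuCCT1 beside 7465, 7286 and 7098 in KKU-100, with −0.48 at the high dose in HuCCT1 and −0.07 in KKU-100. The last bright one read 4032, 3805 and 2905 in HuCCT1 beside 5807, 5586 and 4248 in KKU-100, with −0.47 and −0.45 at the high dose. Its limma estimate at the high dose was −0.46 (SE 0.06, adjusted p = 0.125), which did not pass the threshold. None of these reached 1.5-fold, and the other 4 probe sets were below the filter.

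Over both lines together, limma called 0 of the 23 members tested at the low dose, 0 at the high dose and 0 for a difference in slope between the lines. The counts over all 27307 probe sets were 0 for each as well. At an unadjusted p under 0.05, ITGA2 and ITGA6 were lower at the low dose, 2 members beside 10.7% of all probe sets, 6% lower. ITGA2, ITGA6 and ITGB5 were lower at the high dose, 3 members beside 14.9%, 6.66% lower. For the slope difference it was 1 member, ITGB8, beside 4.97%, 2.15% lower. The methods' t-test, unadjusted, had 1 member under 0.05 for the low dose, beside 5.91% of all probe sets, and 2 for the high dose, beside 6.17%. After Benjamini-Hochberg adjustment it had 0 members for either, and 1 and 5 of all probe sets.

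Of the proteins that join integrins to the cytoskeleton, 3 in HuCCT1 and 6 in KKU-100 passed 1.5-fold at the low dose. Of 22 adaptors and activators kept there, the low dose had 1 higher and 2 lower (median −0.10), beside 3.68% and 3.32% of all genes. The high dose had 0 higher and 2 lower (median −0.14), beside 8.23% and 6.44%. In KKU-100, of 24 kept, the low dose had 6 higher (median 0.17), beside 9.75% of all genes, and the high dose 4 (median 0.18), beside 9.44%, with 0 lower. TNS4, a short tensin of epithelial cells that binds integrin tails, read 718, 274 and 112 in HuCCT1, log2 fold changes of −1.39 and −2.68. VCL, the actin-binding vinculin of focal adhesions, had −0.34 and −1.09 there. Of the longer tensins in KKU-100, TNS3 had 1.89 and 1.11 and TNS2 had 1.61 and 0.94, whereas TNS1 had −0.01 and 0.19.

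Among hemidesmosome and tetraspanin partners, PLEC, DST and CD151 were kept and 0 of 3 passed 1.5-fold in any comparison. Of the other basement membrane genes, 11 were kept in HuCCT1. There the low dose had 3 higher (median 0.31), beside 3.68% of all genes, and the high dose 1 higher and 2 lower (median 0.06), beside 8.23% and 6.44%. In KKU-100, of 13 kept, the low dose had 2 higher (median 0.05), beside 9.75%, and the high dose 1 (median 0.10), beside 9.44%. The type IV collagen chain COL4A2 had 0.96 and 0.66 in HuCCT1, and COL4A6 had −0.22 and −0.88. In KKU-100 COL4A3 had 1.17 and 0.79. HSPG2, the heparan sulfate proteoglycan perlecan, had 0.64 and 0.50 in HuCCT1. Of the other laminin receptors only BCAM was kept, and it did not pass 1.5-fold. COL17A1, VTN, DAG1 and RPSA were not analysed here. Between the lines limma called 15 of 23 adaptors, 10 higher and 5 lower in KKU-100, 9 of 13 matrix genes, 6 higher and 3 lower, and 2 of 3 hemidesmosome partners, both higher. These counts stand beside 51.1% of all probe sets called, 26.1% higher and 25% lower.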

How the data were processed

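Total RNA of 6 cultures, 1 per cell line and treatment, was hybridised to 6 Affymetrix arrays. The authors deposited MAS5 signal intensities on a linear scale in 1 series table, per the labels (MAS5 version not given in the sources used here). Of 54675 rows, 62 control probe sets were left out. GEO's platform annotation gave 1 symbol to 41091 of the 54613 others, several to 1801 and none to 11721, and named 19775 genes. The log2 of each intensity was used without further scaling. Each gene was represented by its single-symbol probe set of highest mean log2 signal, and kept at or above the 50th percentile of all probe sets, a signal of 29.9 in fits over all arrays. limma 3.58.1 in R 4.3.3 fitted line and treatment, and line by dose rank for the slopes, with 2 residual degrees of freedom, an intensity trend and Benjamini-Hochberg adjustment over 27307 probe sets at 0.05. Fold changes of 1 array against 1 have no test. limma was tested on simulated data first. The methods' t-test was run as an alternative. Sequences are RefSeq's.

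Members and lists were chosen with earlier results of these data known. Values on all arrays are given for members called by limma, past 1.5-fold in 1 direction under both doses of a line, at least 4-fold apart between solvent arrays, or needed as partners of other chains (ITGB1, ITGA6, ITGB4, LAMA5, LAMB1 and LAMC1), and by ranges and counts for the rest. From each related list up to 4 genes are named, chosen by the size of their high-dose change among genes whose doses agree in sign. MAS5 scales each array as a whole and is noisier at low intensity, and the number of arrays limits the precision.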

Additional observations from a re-analysis of the deposited data

Results flagged for a closer look

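Of the 22 members kept in both lines, 2 had both treated arrays on one side of solvent in HuCCT1 and on the other side in KKU-100. The share of all genes with this pattern is not given here, so the count is no result about the members. ITGB8 had a log2 fold change at the high dose that was lower in KKU-100 than in HuCCT1, a difference of −1.54. In ITGAV, the alpha subunit it pairs with, the difference was −0.30, with log2 fold changes of 0.35 and 0.07 for HuCCT1 against −0.17 and −0.24 for KKU-100. Each of these ITGAV changes was within 1.5-fold. ITGA10, kept in KKU-100 alone, had 0.44 and 0.11 in HuCCT1 against −0.53 and −0.12 in KKU-100. These differences between single arrays were not tested as such. The limma slopes per dose step, KKU-100 minus HuCCT1, differed by −0.77 for ITGB8 (adjusted p = 0.887) and by −0.15 for ITGAV (SE 0.15, 95% confidence interval −0.52 to 0.22, adjusted p = 0.898).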

How the results depend on the processing

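No paired analysis was possible because each condition has 1 array, and the cell line is already a block in the fit over both lines. A stricter filter (60th percentile) or none, quantile normalization, median centring of arrays and a floor set to the 20th percentile kept the member counts within 1.5 times their values and turned no direction. ITGAV was not called between the lines under quantile normalization, and ITGAV and ITGB1 were not called without the intensity trend. Without probe sets whose names end in _x_at or _s_at, 9 members were called between the lines, with fewer members tested. By the methods' t-test 3 were called, beside 17.2% of all probe sets, and 11 were under 0.05 unadjusted, beside 43.5%. With the median over a gene's probe sets, HuCCT1 had 1 member past 1.5-fold for the low dose and 4 for the high dose. ITGB8 then turned direction, to −0.0011 (low dose) and −0.026 (high dose) in HuCCT1 and to 0.073 (low dose) in KKU-100. A cutoff of 2-fold left 0 and 1 members in HuCCT1 and 1 and 1 in KKU-100. For this cutoff, for the median over probe sets and without _x_at or _s_at, the share over all genes is not given here. Those counts show only how the member counts move with the setting. Leaving out each array in turn gave 0 to 1 members called at the low dose, 0 at the high dose, 8 to 15 between the lines and 0 for the slopes. The 1 call was ITGA2 without the HuCCT1 solvent array, beside 6.02% of all probe sets called. Between the lines, the fits with an array left out called 33.6% to 53.9% of all probe sets. Of the 94 probe sets of members, 53 lay below the level filter in both lines, where the signal sets the limit.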

Other observations

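1 further probe set of ITGAM, the alpha subunit of the complement receptor of myeloid cells, was picked out after its values were seen. It reached the level filter in KKU-100 and not in HuCCT1. It read 9.36, 16.9 and 14.4 under solvent, low and high dose in HuCCT1, whereas the signals were 115, 16.6 and 25.4 in KKU-100, so the KKU-100 solvent array stood apart from the other 5. The representative ITGAM probe set read between 24.1 and 27.3 on all 6 arrays, and ITGAX, its neighbour on chromosome 16, between 19.9 and 26.3.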
